A study of Mus musculus with 3 samples.

Results

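The messenger RNAs of p53 and 9 of its targets and partners were followed across the cell classes of mouse pancreatic tumours. The 10 genes, of 28692 in the deposited count table, were Trp53 itself, its inhibitors Mdm2 and Mdm4, and the targets Cdkn1a, Eda2r, Zmat3, Phlda3, Ccng1, Perp and Pmaip1. Each symbol occurred once in the table. Cells came from 3 tumours of the strain KPf/fC. They had been sorted against leukocytes (CD45-), endothelial cells (CD31-) and PDGFRa-bearing cells (PDGFRa-), and were sequenced with 10x 3' chemistry, which counts unique molecular identifiers (UMIs) from the 3' end of each transcript. All 3 tumours carried the same genotype. The labels do not spell out its alleles; in the usual naming of pancreatic cancer models, Pf/f stands for floxed Trp53 and C for Cre, with the deletion meant for the Cre lineage and not for the stroma. The promoter that drives Cre, the floxed exons and the age of the mice could not be read from the labels, and the samples hold no tumour labelled as p53-intact. The comparisons are therefore between cell classes within the same tumours. The labels name 3 tumours but not whether each came from its own animal. In the main fits level differences between tumours are removed, so p-values set the mean class difference against its spread from tumour to tumour. That spread was estimated over all classes in the fit, not only those compared.

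Cells were assigned by gates on 12 genes, each asking for at least 1 UMI, and a cell counted only when it passed exactly 1 gate. The epithelial gate (Epcam and Cdh1) held 1909, 1482 and 2973 cells in tumours 1, 2 and 3. The gate meant for mesenchymal tumour cells (Cdkn2a and Hmga2, with Epcam at 0 and Dcn at 1 or less), here named Hmga2-gated (Epcam-0 Cdkn2a+ Hmga2+ in the plots), held 185, 1048 and 130 cells. The fibroblast gate (Dcn and Col3a1) held 1773, 1633 and 2175 cells, and the mural gate (Rgs5 and Higd1b), for pericytes and smooth muscle cells of vessels, held 188, 120 and 253. Nearly all cells in the mesothelial gate (Upk3b and Lrrn4), for the lining of the organ surface, also passed the fibroblast gate, and the rule of exactly 1 gate left 6, 0 and 5 of them. Cells in those 2 gates and no other were therefore counted as mesothelial, a choice made after the data were seen, which gave 226, 72 and 61 cells. The endothelial gate (Pecam1 and Cdh5) held 186, 14 and 57 cells. The 14 endothelial cells of tumour 2 were under the minimum of 20 and entered no test.

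p53 is a transcription factor that is held low by Mdm2, a ubiquitin ligase, and by the related Mdm4, and that accumulates after DNA damage or oncogene activity. Cdkn2a links oncogenes to it, because its Arf product binds Mdm2. Mdm2 is itself a target, which closes a negative feedback loop, while the other targets arrest the cell cycle, restrain growth signals or promote cell death. Mutation or loss of p53 is frequent in pancreatic ductal adenocarcinoma.

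The gates were checked against markers they did not use. The 8 epithelial markers summed to 10230, 9369 and 8066 CPM, UMIs scaled to a total of 1e+06, in the epithelial gate of tumours 1, 2 and 3, and to 1027, 842.1 and 429.1 CPM in the fibroblast gate. Krt18, a keratin, stood at 3666, 642.1 and 2947 CPM in Hmga2-gated cells and at 3900, 3498 and 3326 CPM in epithelial cells, so the mesenchymal label did not hold in tumours 1 and 3, where the Hmga2-gated cells carried epithelial keratin. The fibroblast gate was uneven as well: its 7 fibroblast markers summed to 5345 CPM in tumour 2, against 12190 and 12210 CPM in tumours 1 and 3, and Hmga2 reached 388.2 CPM in tumour 2, against 37.5 and 11.9 CPM. Only 274 of the 1633 fibroblast-gated cells of tumour 2 lacked both Cdkn2a and Hmga2 UMIs. The endothelial sum of tumour 3 held 7500 CPM of the 3 erythroid markers, and the 9 immune markers stayed at or below 29.6 CPM in each sum. The 5 acinar markers summed to 2197, 66.95 and 2623 CPM in the epithelial gate of tumours 1, 2 and 3. In the fibroblast gate they summed to 952.3, 148.9 and 556.4 CPM. The part of acinar cells or free acinar RNA in the values of these gates was not tested. Between pairs of tumours, 50 to 65 of the 5874 to 7615 barcode sequences were the same. The sums behind the values held 66982 to 25420386 UMIs, and median UMIs per cell ran from 2938 in endothelial cells of tumour 3 to 14571 in Hmga2-gated cells of tumour 1.

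Trp53 mRNA was present in every class, and whether it was higher or lower in the epithelial cells than in the stroma depended on the tumour. Epithelial cells held 38.7, 24.7 and 81.8 CPM of Trp53 in tumours 1, 2 and 3, and Hmga2-gated cells held 25.5, 18.8 and 69.6 CPM. Fibroblasts held 67.3, 36.3 and 27.1 CPM and mural cells 69.9, 79.3 and 22.2 CPM. In tumours 1 and 2 the epithelial and the Hmga2-gated cells both lay below every stromal class, and in tumour 3 both lay above every one of them. Mesothelial cells held 86.8, 62.1 and 23.6 CPM, and endothelial cells 130.2 and 34.0 CPM in tumours 1 and 3, with the 14 cells of tumour 2 at 194.1 CPM. The ratio of epithelial cells to fibroblasts was 0.574, 0.682 and 3.01 in tumours 1, 2 and 3, and that of epithelial to mural cells was 0.553, 0.312 and 3.68. Tumour 3 had both the highest epithelial level and the lowest level of each stromal class. Within each tumour Hmga2-gated cells held less Trp53 than epithelial cells, at 0.658, 0.761 and 0.852 of their level.

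**Figure D1:**
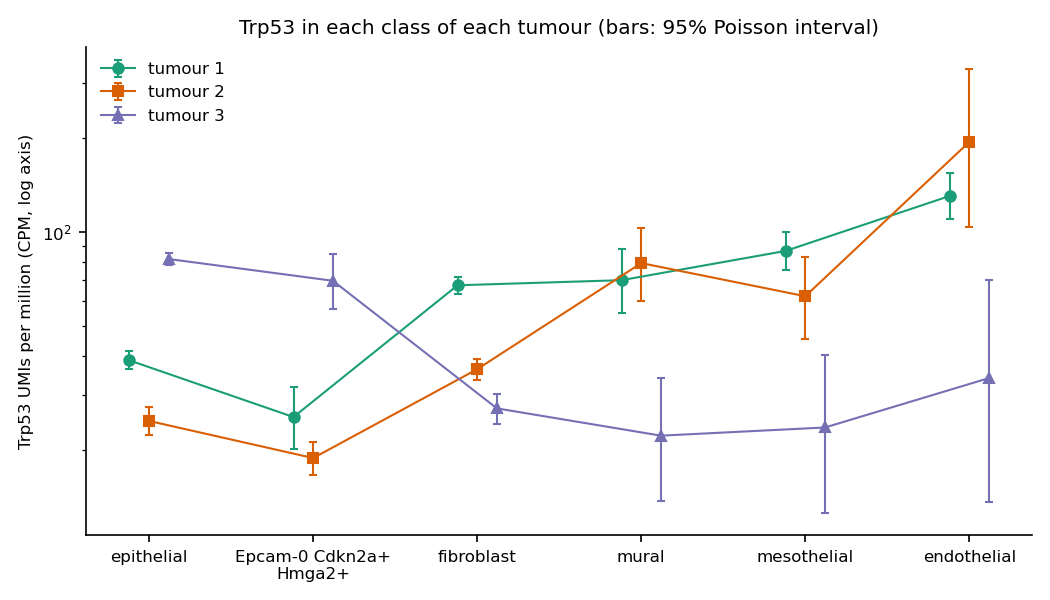
Trp53 in CPM (log axis) in each class, one line per tumour, with 95% Poisson intervals for counting error; the endothelial point of tumour 2 rests on 14 cells. The lines of tumours 1 and 2 run upwards to the stromal classes and that of tumour 3 runs downwards, with 81.8 CPM in epithelial cells and 22.2 CPM in mural cells.

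No comparison called Trp53 across the 3 tumours. The fitted log2 fold change was 0.06 ± 0.58 (SE) for epithelial cells over fibroblasts (adjusted p = 0.957, edgeR quasi-likelihood test with tumour as a block) and -0.27 ± 0.63 over mural cells (adjusted p = 0.782). Each tumour was also left out in turn. Without tumour 3 the log2 fold change was -0.63 over fibroblasts (adjusted p = 0.158, edgeR). Over mural cells it was -1.11 (adjusted p = 0.0443, edgeR) and over mesothelial cells -1.29 (adjusted p = 0.0116, edgeR). Over endothelial cells, where that side is the single sum of tumour 1, it was -1.66. Tumour 3 is the one that ran the other way, so these values are no support for a lower epithelial level. In each of these comparisons, leaving out some other tumour gave a positive fold change. To compare shares at equal depth, 3000 UMIs were drawn from each cell that held as many, which left out 91 of 2973 epithelial cells and 333 of 2175 fibroblasts of tumour 3 and none of either class in tumours 1 and 2. Of the thinned cells, 10.8%, 7.69% and 19.7% of epithelial cells and 16.8%, 10.1% and 6.89% of fibroblasts carried a Trp53 UMI in tumours 1, 2 and 3, which keeps the same inversion. The unthinned shares were 33.9%, 21.3% and 44.7% of epithelial cells and 39.9%, 29.3% and 13.3% of fibroblasts. Because the counts come from the 3' end, which lies outside the exons usually floxed, these UMIs do not show whether the gene was deleted.

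The inhibitors of p53 differed little between classes. Mdm2, both an inhibitor and a target, held 18.2, 22.0 and 28.0 CPM in epithelial cells of tumours 1, 2 and 3, against 31.5, 28.5 and 29.4 CPM in fibroblasts. The epithelial value lay below the fibroblast one in every tumour, most narrowly in tumour 3, and the log2 fold change of -0.48 ± 0.19 missed the threshold (adjusted p = 0.0632, edgeR). Hmga2-gated cells averaged 26.2 ± 2.3 CPM of Mdm2, mural cells 28.3 ± 2.0 CPM and mesothelial cells 22.7 ± 5.5 CPM (SD, n = 3 each). These ranges overlapped with the epithelial one, whose mean was 22.7 ± 4.9 CPM. Mdm4, which restrains the transcriptional activity of p53, averaged 29.1 ± 7.1 CPM in epithelial cells, 24.5 ± 4.4 CPM in Hmga2-gated cells, 32.9 ± 8.7 CPM in fibroblasts and 33.8 ± 9.2 CPM in mural cells (SD, n = 3 each). No comparison called Mdm2 or Mdm4.

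Eda2r, Zmat3, Phlda3 and Ccng1 were lower in epithelial cells than in fibroblasts in 3 of 3 tumours and were called so. These fibroblasts are the cells left after the sort against PDGFRa and may not stand for all fibroblasts of the tumours. With gates of at least 2 UMIs they still held 107.8, 43.8 and 117.1 CPM of Pdgfra in tumours 1, 2 and 3. Eda2r, a receptor of the tumour necrosis factor receptor family, was seen mainly in fibroblasts. In the epithelial cells of tumours 1, 2 and 3 there were 7, 2 and 5 UMIs, against 83, 53 and 95 in fibroblasts. That is 0.31, 0.13 and 0.20 CPM in epithelial cells, against 5.70, 3.03 and 7.91 CPM in fibroblasts. Over the pooled tumours the epithelial level was 0.0421 of the fibroblast level (95% interval 0.0227 to 0.0722, counting error only), and the fitted log2 fold change was -4.66 ± 0.55 (adjusted p = 5.06e-05, edgeR). Hmga2-gated cells held 0, 2 and 0 UMIs of Eda2r, a pooled level of 0.0204 of that in fibroblasts (0.00246 to 0.0747). Mural cells held 1, 1 and 0 UMIs, which is too few to place them. Mesothelial cells held 7, 1 and 0 UMIs, and the call of epithelial below mesothelial cells (-3.16 ± 0.81, adjusted p = 0.00728) was lost without tumour 1 (adjusted p = 0.478).

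Zmat3 encodes an RNA-binding zinc finger protein. It held 7.59, 7.28 and 4.56 CPM in epithelial cells and 23.9, 15.3 and 28.4 CPM in fibroblasts of tumours 1, 2 and 3, a log2 fold change of -1.89 ± 0.34 (adjusted p = 0.000947, edgeR). Hmga2-gated cells, at 4.69, 7.49 and 7.25 CPM, lay in the epithelial range. Mural cells, at 17.01, 15.6 and 7.40 CPM, stood between the epithelial cells and the fibroblasts in tumours 1 and 3, and the epithelial difference from them was not called (-0.99 ± 0.40, adjusted p = 0.0777).

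Phlda3 encodes a small pleckstrin homology protein that competes with Akt for membrane lipids. Its levels fell into a low and a high set of classes. The low set was the epithelial cells, at 40.6, 47.2 and 33.8 CPM in tumours 1, 2 and 3, the mesothelial cells, at 39.6, 45.6 and 29.0 CPM, and the Hmga2-gated cells, at 57.3, 50.5 and 70.4 CPM, which is 1.41, 1.07 and 2.08 times the epithelial level. The high set was the fibroblasts, at 118.9, 94.0 and 113.8 CPM, the mural cells, at 155.0, 107.7 and 104.6 CPM, and the endothelial cells, at 80.0 and 126.1 CPM in tumours 1 and 3. No value of the high set overlapped with the low set. Epithelial cells were lower than fibroblasts (log2 fold change -1.48 ± 0.22, adjusted p = 0.000233), mural cells (-1.54 ± 0.22, adjusted p = 0.000271) and endothelial cells (-1.08 ± 0.27, adjusted p = 0.0154, edgeR). They did not differ detectably from mesothelial cells (-0.04 ± 0.22, adjusted p = 0.929). The endothelial call rests on tumours 1 and 3 and was lost without either of them (adjusted p = 0.143 without tumour 1 and 0.274 without tumour 3).

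Ccng1, which encodes cyclin G1, held 18.4, 23.0 and 25.3 CPM in epithelial cells and 51.3, 40.2 and 40.7 CPM in fibroblasts of tumours 1, 2 and 3. The groups did not overlap, and the log2 fold change was -1.08 ± 0.23 (adjusted p = 0.00311, edgeR). The call was lost without tumour 1 (-0.70, adjusted p = 0.144) and without tumour 3 (-1.12, adjusted p = 0.0526). Mesothelial cells, at 44.7, 34.5 and 18.1 CPM, and mural cells, at 22.7, 48.2 and 27.5 CPM, spread across both ranges. Across the 14 sums of the fit, without the mesothelial ones, the log levels of Eda2r and Zmat3 correlated with r = 0.905, those of Eda2r and Ccng1 with r = 0.818 and those of Zmat3 and Ccng1 with r = 0.781. Phlda3 correlated with Zmat3 at 0.763, with Ccng1 at 0.558 and with Eda2r at 0.517. These are descriptions, since sums of a tumour share its library.

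Perp and Pmaip1 ran the other way. Perp, a tetraspan protein of desmosomes that is also a p53 and p63 target, held 78.4, 118.1 and 180.2 CPM in epithelial cells of tumours 1, 2 and 3. Fibroblasts held 7.01, 5.83 and 9.16 CPM, mural cells 4.73, 2.83 and 4.23 CPM, and endothelial cells 4.65 and 0 CPM in tumours 1 and 3. Every epithelial value lay above every stromal one. Epithelial cells exceeded fibroblasts by a log2 fold change of 4.02 ± 0.51 (adjusted p = 9.46e-05), mural cells by 5.08 ± 0.70 (adjusted p = 0.000181) and endothelial cells by 5.20 ± 0.91 (adjusted p = 0.00179, edgeR). The endothelial call was lost without tumour 1 (adjusted p = 0.0647), where the only endothelial sum left holds no Perp UMI. The fibroblast level of Perp was 8.94%, 4.94% and 5.08% of the epithelial level, beside 11.3%, 11.6% and 5.92% for Krt18 and 4.16%, 2.20% and 3.03% for Epcam, and the part of free or epithelial RNA in it was not tested. Mesothelial cells, themselves an epithelium, held 25.7, 22.1 and 54.4 CPM, below the epithelial cells in each tumour (epithelial over mesothelial 1.87 ± 0.47, adjusted p = 0.00639, and 0.0701 without tumour 1).

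Pmaip1 encodes Noxa, a BH3-only protein that promotes apoptosis. It held 44.4, 47.8 and 104.8 CPM in epithelial cells and 10.3, 11.04 and 11.8 CPM in fibroblasts of tumours 1, 2 and 3, and the fibroblast values varied little. The log2 fold change was 2.33 ± 0.54 (adjusted p = 0.00499, edgeR), and the call was lost without tumour 3 (2.17, adjusted p = 0.0690). Mural cells held 9.45, 1.42 and 8.46 CPM and mesothelial cells 5.48, 2.76 and 3.63 CPM, and epithelial cells were called higher than both, by 3.37 ± 0.73 (adjusted p = 0.00389, and 0.0501 without tumour 3) and 3.70 ± 0.72 (adjusted p = 0.00111). Endothelial cells, at 25.1 and 34.0 CPM in tumours 1 and 3, lay between, and the epithelial difference from them was not called (1.54 ± 0.76, adjusted p = 0.178). Trp53, Perp and Pmaip1 each had their highest epithelial level in tumour 3, as had Mdm2, Mdm4, Cdkn1a and Ccng1.

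In Hmga2-gated cells both genes differed between tumours. Perp held 27.8, 6.23 and 76.9 CPM in Hmga2-gated cells of tumours 1, 2 and 3, which is 35.5%, 5.27% and 42.7% of the epithelial level. Pmaip1 held 54.0, 7.35 and 126.9 CPM, or 121.7%, 15.4% and 121.2% of the epithelial level. Tumour 2, the tumour whose Hmga2-gated cells had 642.1 CPM of Krt18 and 6.09 CPM of Cdh1, was the low one for both genes, with Perp at 5.83 and Pmaip1 at 11.04 CPM in its fibroblasts. Hmga2-gated cells of tumours 1 and 3 held 90.8 and 171.2 CPM of Cdh1. The part of the keratin-bearing cells in these levels was not tested. Perp was lower in Hmga2-gated than in epithelial cells (log2 fold change -2.14 ± 0.50, adjusted p = 0.0169, edgeR), and the call was lost without tumour 1 (adjusted p = 0.0689) and without tumour 3 (0.0530).

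Cdkn1a encodes p21, the inhibitor of cyclin-dependent kinases through which p53 arrests the cycle, and it is the classical readout of p53 activity. Its level did not separate epithelial cells from fibroblasts. Epithelial cells held 93.4, 89.9 and 117.0 CPM in tumours 1, 2 and 3 and fibroblasts 98.6, 123.1 and 123.9 CPM, with a log2 fold change of -0.28 ± 0.51 (adjusted p = 0.715, edgeR). Hmga2-gated cells were lower than epithelial cells in each tumour, at 72.7, 75.5 and 42.8 CPM, but the difference was not called (-0.46 ± 0.52, adjusted p = 0.641). Mesothelial cells had the lowest mean, at 49.3, 22.1 and 74.4 CPM, and the epithelial excess over them (0.96 ± 0.54, adjusted p = 0.189) was called without tumour 3 (1.26, adjusted p = 0.0291). The highest values were in the vessel cells of tumour 3: mural cells held 80.3, 56.7 and 375.2 CPM in tumours 1, 2 and 3, and endothelial cells 99.5 and 422.1 CPM in tumours 1 and 3. A Cdkn1a UMI was seen in 25.5%, 19.2% and 53.4% of mural cells of tumours 1, 2 and 3. At 3000 UMIs a cell they were 17.02%, 10.0% and 43.2%, of which the last is over 148 of the 253 mural cells of tumour 3, since 105 were shallower and left out. Mural Phlda3 stood at 104.6 CPM in tumour 3, against 155.0 and 107.7 CPM in tumours 1 and 2, and mural Mdm2 at 30.7 CPM, against 27.4 and 26.9 CPM. Tumour 3 mural and endothelial cells were also the shallowest, with median depths of 3251 and 2938 UMIs. Cdkn1a overlaps the antisense gene AC167363.2, and the labels do not say whether counting used the strand.

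**Figure D2:**
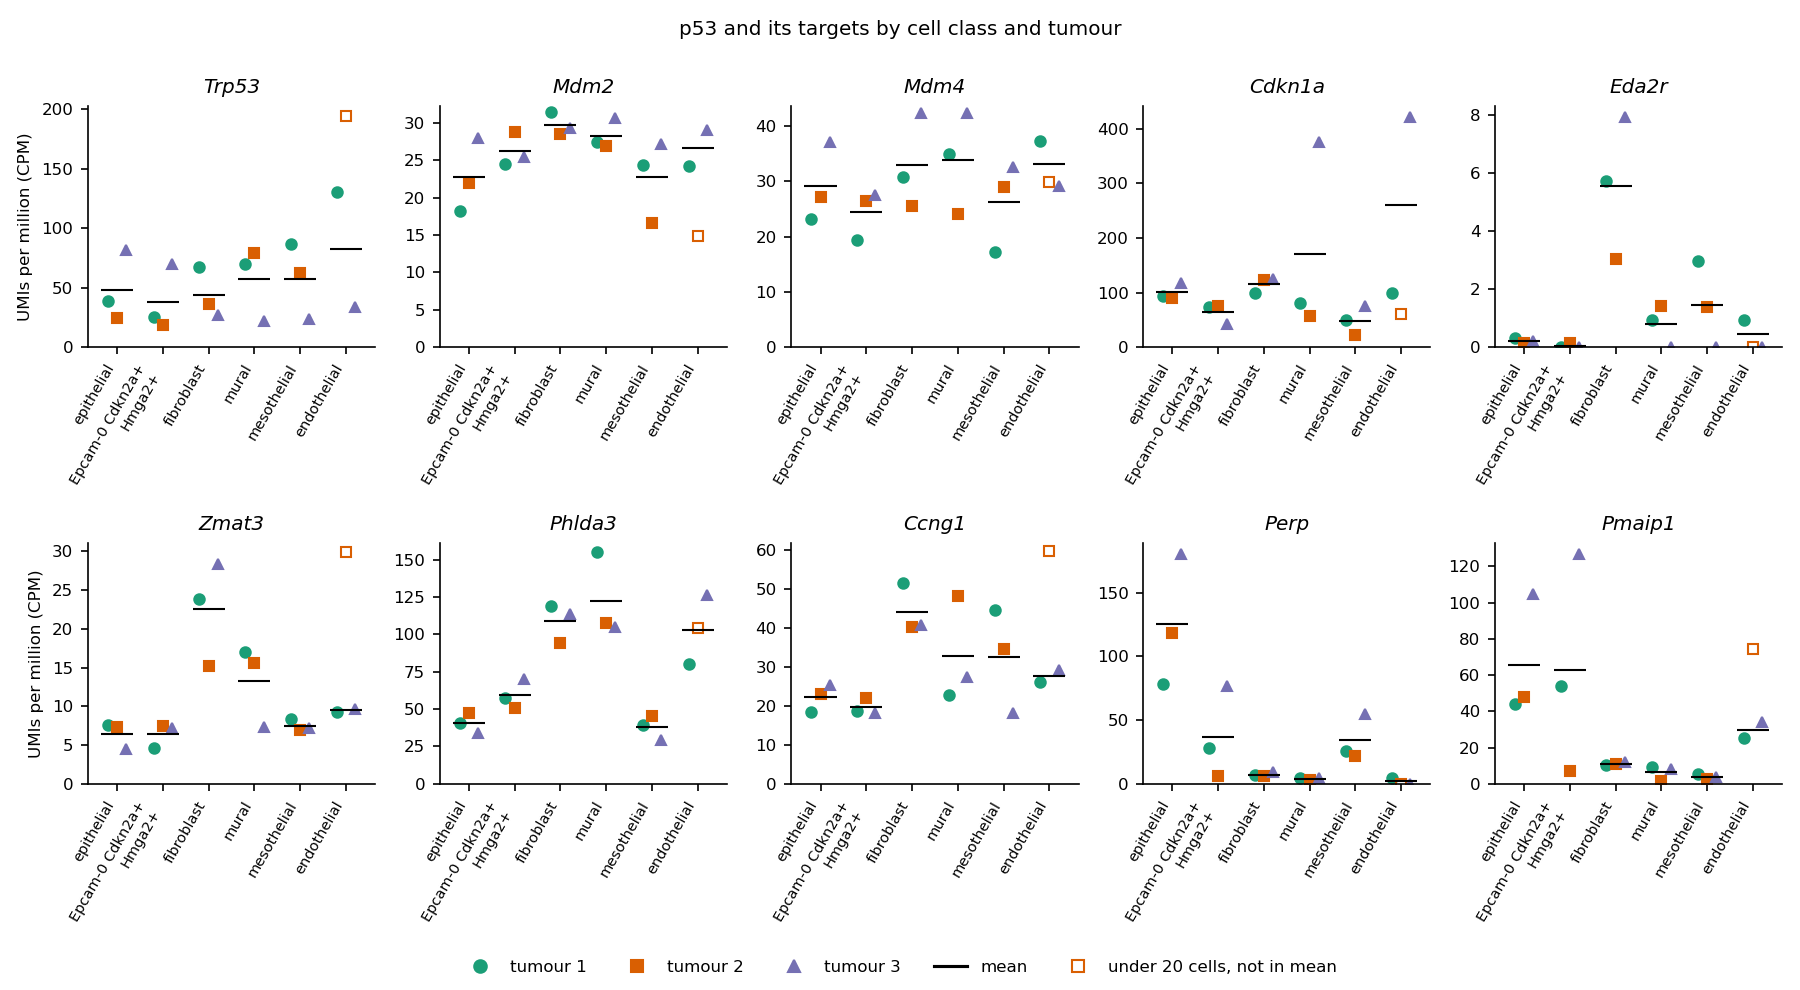
CPM of each of the 10 genes in each class, 1 point per tumour and a line at the mean; open squares mark the 14 endothelial cells of tumour 2, which are not in the mean. Eda2r, Zmat3, Phlda3 and Ccng1 stand highest in stromal classes, Perp in epithelial cells, and Cdkn1a reaches 375.2 and 422.1 CPM in mural and endothelial cells of tumour 3.

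In the GENCODE M21 annotation (GRCm38) Trp53 lies at chr11:69580359-69591873, Eda2r at chrX:97333840-97377216, Perp at chr10:18845020-18857073 and Cdkn1a at chr17:29090976-29100727. Promoters were searched for p53 response elements. RefSeq promoter windows, from 250 bases before to 50 bases after a start site (GRCm38.p6), were found for 7 of the 10 genes, 9 windows in all, and Zmat3, Perp and Pmaip1 had none. The search covered both strands for the p53 response element decamer, with its 4 core bases exact and at most 1 mismatch in its 6 flanking bases; a full element is 2 decamers at most 13 bases apart. A decamer occurs in 39.6% of all 32851 windows and a full element in 1.39%. Of the 7 genes with a window, Cdkn1a was the only one with a full element, in the window of its upstream start site (chr17:29090729-29091028, plus strand). A pair of decamers abuts at chr17:29090928-29090947, 51 bases before this start and 2841 bases before the other annotated start; this is the 20-base run of capitals in the sequence below. Capitals mark decamers in each sequence. The windows of Eda2r (chrX:97377160-97377459, minus strand) and Ccng1 (chr11:40755237-40755536, minus strand), genes lower in epithelial cells than in fibroblasts, are shown for comparison and hold a single decamer each.
Cdkn1a: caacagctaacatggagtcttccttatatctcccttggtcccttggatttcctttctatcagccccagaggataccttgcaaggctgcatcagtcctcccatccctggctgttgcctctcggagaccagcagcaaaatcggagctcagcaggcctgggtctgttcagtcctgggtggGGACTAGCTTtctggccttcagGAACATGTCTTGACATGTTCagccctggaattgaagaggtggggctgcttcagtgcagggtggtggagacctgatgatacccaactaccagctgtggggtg
Eda2r: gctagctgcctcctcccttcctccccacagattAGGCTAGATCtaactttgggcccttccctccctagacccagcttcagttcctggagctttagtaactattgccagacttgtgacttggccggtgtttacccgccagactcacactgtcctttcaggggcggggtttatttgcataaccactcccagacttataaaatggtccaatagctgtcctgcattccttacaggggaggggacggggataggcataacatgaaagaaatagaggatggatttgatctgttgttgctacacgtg
Ccng1: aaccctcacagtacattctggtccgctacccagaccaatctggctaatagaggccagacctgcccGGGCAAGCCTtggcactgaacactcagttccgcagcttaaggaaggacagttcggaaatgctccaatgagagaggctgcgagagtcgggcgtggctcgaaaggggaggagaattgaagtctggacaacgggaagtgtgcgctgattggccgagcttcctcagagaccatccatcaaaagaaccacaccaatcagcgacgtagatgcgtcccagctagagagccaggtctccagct
The Phlda3 window (chr1:135765835-135766134, plus strand) held no decamer, nor did that of the downstream Cdkn1a start. The Trp53 window held 1 decamer, that of Mdm2 held 2 that are farther apart, and of the Mdm4 windows one held 2 and the other none. A match of letters is no evidence of binding, and its absence says only that these letters are not in this window.

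In epithelial cells over fibroblasts 6 of the 10 genes were called, 2 higher and 4 lower, where 37.1% of 14170 genes were called, 15.8% higher and 21.3% lower. The median log2 fold change of the 10 genes was -0.38, beside -0.04 for all genes. Against fibroblasts without a Cdkn2a or Hmga2 UMI, a subset chosen after the data were seen, 6 of 10 were again called, where 43.3% of 12446 genes were called, 21.4% higher and 21.9% lower, with Eda2r at -4.20 ± 0.53, Zmat3 at -1.57 ± 0.26, Phlda3 at -1.40 ± 0.27, Ccng1 at -1.08 ± 0.22, Perp at 4.66 ± 0.56 and Pmaip1 at 3.39 ± 0.61 on the log2 scale (adjusted p from 5.25e-05 to 0.00213, edgeR). Against the same fibroblasts 6 of 10 were called for Hmga2-gated cells, where 34.8% of genes were called, 15% higher and 19.8% lower. In epithelial over mural cells 3 of 10 were called, Perp and Pmaip1 higher and Phlda3 lower, where 33.4% of genes were called, 17% higher and 16.4% lower. In epithelial over endothelial cells, with 2 tumours on the endothelial side, Perp was higher and Phlda3 lower, where 21.2% of genes were called, 10.8% higher and 10.4% lower. In epithelial over mesothelial cells, in a fit of its own with 12606 genes, Perp and Pmaip1 were higher and Eda2r lower, where 34.9% were called, 16.7% higher and 18.3% lower. The shares called were near those of all genes in the last 3 comparisons, at 2 or 3 of 10, so the number of p53 genes called there is not a result about them.

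Of the 10 genes, 6 were called between Hmga2-gated cells and fibroblasts, 2 higher and 4 lower, where 20% of genes were called, 6.77% higher and 13.3% lower. This comparison shares its fibroblast sums with that of epithelial cells and fibroblasts. Eda2r (-5.22 ± 0.76), Zmat3 (-1.81 ± 0.37), Phlda3 (-0.91 ± 0.22) and Ccng1 (-1.20 ± 0.24) were lower in Hmga2-gated cells on the log2 scale. Perp (1.88 ± 0.50) and Pmaip1 (1.92 ± 0.57) were higher, Pmaip1 in 2 of 3 tumours. In tumour 2 Perp was barely higher, at 6.23 CPM in Hmga2-gated cells against 5.83 CPM in fibroblasts. Hmga2-gated cells of tumours 1 and 3 were those that carried epithelial keratin. With only these classes in the fit, 1 of the 10 genes was called. Without tumour 1 and without tumour 3 only Eda2r of the 10 was called, and 6 of 10 were called without tumour 2. Between Hmga2-gated and epithelial cells Perp alone was called, lower, where 12.2% of genes were called, 4.81% higher and 7.44% lower. Phlda3 was higher in Hmga2-gated cells in 3 of 3 tumours without passing the adjusted threshold (0.57 ± 0.22, adjusted p = 0.113, edgeR).

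**Figure D3:**
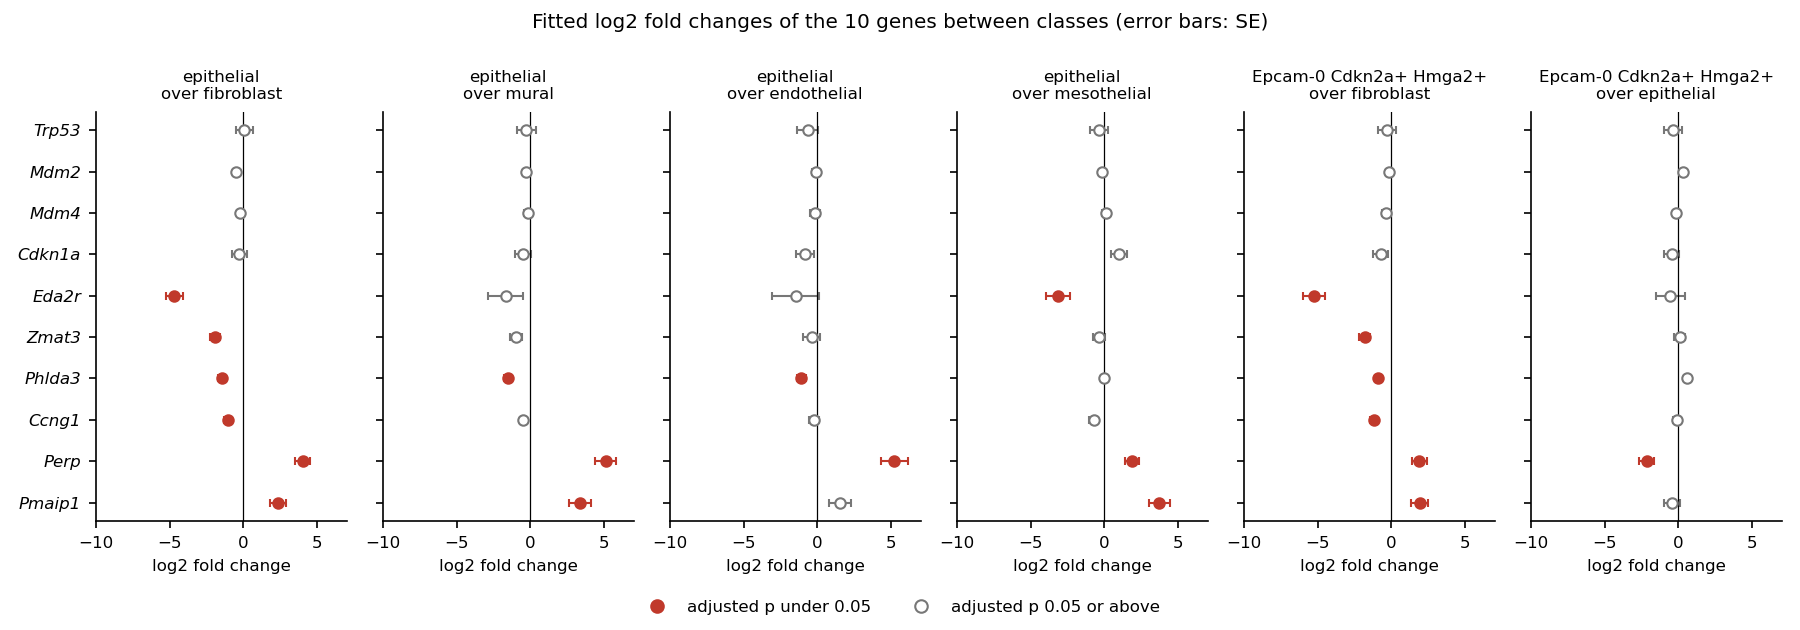
Fitted log2 fold changes of the 10 genes in the 6 comparisons between classes, with SE bars; filled points passed an adjusted p of 0.05 in edgeR's quasi-likelihood test. Perp lies right of 0 in each comparison with stroma, Eda2r lies left of 0, and Trp53, Mdm2, Mdm4 and Cdkn1a have open points in each panel.

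The fibroblast gate was then split by whether a cell carried a Cdkn2a UMI; this split was added after the data were seen. Cdkn2a encodes Ink4a and Arf from overlapping transcripts that share their 3' end, so the UMIs do not tell them apart. With Hmga2-bearing cells left out, 532, 590 and 1129 fibroblast-gated cells of tumours 1, 2 and 3 carried a Cdkn2a UMI and 1084, 274 and 971 did not. Cdkn1a stood at 145.7, 235.3 and 168.4 CPM in the fibroblasts with Cdkn2a, against 82.1, 186.1 and 66.0 CPM in those without. Phlda3 stood at 153.0, 170.7 and 151.5 CPM, against 111.1, 147.7 and 65.2 CPM. Eda2r, Zmat3, Pmaip1, Mdm2, Mdm4 and Ccng1 were likewise higher in the Cdkn2a-bearing fibroblasts of each tumour, Ccng1 by as little as 63.2 against 62.6 CPM in tumour 2. Of all 12719 genes tested in this split, 52.65% had a positive fitted log2 fold change. The share of all genes that were higher in each tumour was not computed. Trp53 itself was not higher in each tumour. It stood at 70.4, 44.4 and 28.3 CPM in fibroblasts with Cdkn2a, against 67.6, 74.6 and 24.4 CPM in those without.

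Over all genes these differences did not pass the adjusted threshold. The log2 fold change of fibroblasts with over those without Cdkn2a was 0.84 ± 0.21 for Zmat3 (adjusted p = 0.22), 0.61 ± 0.17 for Phlda3 (adjusted p = 0.316), 1.04 ± 0.35 for Eda2r (adjusted p = 0.468), 0.94 ± 0.36 for Pmaip1 (adjusted p = 0.584) and 0.77 ± 0.28 for Cdkn1a (adjusted p = 0.541) in edgeR. Adjusted over all genes, 0 of the 10 genes were called by edgeR or DESeq2, where 0.157% of 12719 genes were, 0.00786% higher and 0.149% lower; 5 of the 10 and 880 of all genes had an unadjusted p under 0.05 in edgeR. In the epithelial gate 1433, 1374 and 2445 cells carried a Cdkn2a UMI and 476, 108 and 528 did not, and Cdkn1a went the other way, at 87.8, 88.9 and 113.4 CPM in cells with Cdkn2a, against 124.3, 109.0 and 140.8 CPM in those without (-0.43 ± 0.28, adjusted p = 0.392). Phlda3 was called higher in the epithelial cells with Cdkn2a (0.78 ± 0.19, adjusted p = 0.0347), where 7.65% of genes were called, 4.07% higher and 3.58% lower, and the call was lost without any 1 of the tumours (adjusted p from 0.0913 to 0.176). The difference between the gates was 1.20 ± 0.39 for Cdkn1a (adjusted p = 0.246), where 0.244% of genes were called, 0.0708% higher and 0.173% lower, and no p53 gene passed; DESeq2 called none either, and edgeR gave an unadjusted p under 0.05 for Cdkn1a alone. The gates were split by unlike rules, since Hmga2-bearing cells were left out of the fibroblast gate and not of the epithelial gate. With them left out of both, the difference for Cdkn1a was 1.25 ± 0.41 (adjusted p = 0.438, edgeR), and Phlda3 was no longer called in epithelial cells (0.44 ± 0.22, adjusted p = 0.405). Cells with a Cdkn2a UMI were deeper in each split, with medians of 7641, 7097 and 5387 UMIs in fibroblasts with Cdkn2a, against 6610, 6524 and 4380 UMIs in those without. They also held more Epcam, at 93.7, 47.4 and 50.4 CPM, against 45.2, 18.9 and 44.0 CPM, and the part of either in the difference was not tested.

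**Figure D4:**
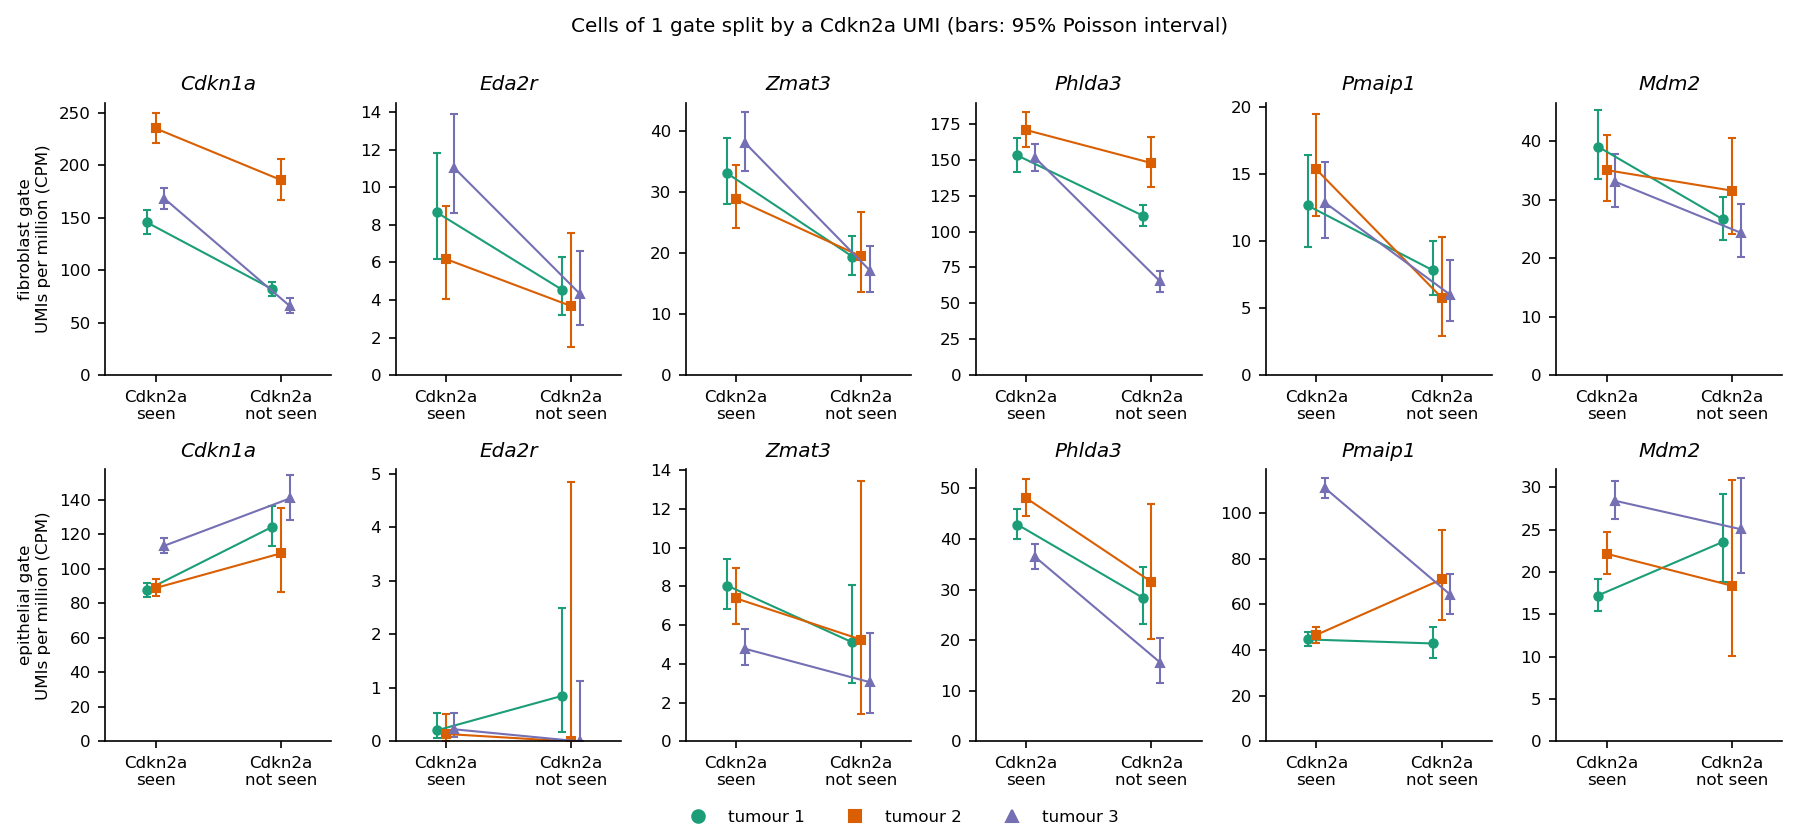
CPM of 6 of the genes in fibroblast-gated (top) and epithelial-gated (bottom) cells with and without a Cdkn2a UMI, 1 line per tumour, with 95% Poisson intervals for counting error. In the fibroblast gate each line of these genes falls from left to right; in the epithelial gate the Cdkn1a lines rise, with 87.8, 88.9 and 113.4 CPM where Cdkn2a was seen and 124.3, 109.0 and 140.8 CPM where it was not.

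Cells with a UMI of Mki67 or Top2a, genes of proliferating cells, made up 10.7%, 11.1% and 4.41% of epithelial cells and 7.73%, 15.98% and 1.47% of fibroblasts in tumours 1, 2 and 3. In epithelial cells Cdkn1a stood at 46.8, 52.7 and 88.5 CPM in these cycling cells, against 102.4, 97.4 and 118.9 CPM in the other cells. In fibroblasts it stood at 59.2, 43.0 and 79.6 CPM, against 104.1, 156.1 and 125.0 CPM. It was lower in the cycling cells of each of these pairs. In fibroblasts of tumour 2 the cycling cells also held less Eda2r (0.785 against 3.96 CPM). Zmat3 (6.48 against 18.9 CPM) and Phlda3 (43.6 against 114.7 CPM) were lower too. These cycling values of Zmat3 and Phlda3 lay near the 7.49 and 50.5 CPM of the Hmga2-gated cells of that tumour. Eda2r stood at 0.14 CPM in those Hmga2-gated cells, on 2 UMIs, beside 4 UMIs in the cycling fibroblasts. The part of Hmga2-bearing cells in the split was not tested. In cycling fibroblasts of tumour 1 Eda2r was higher (7.2 against 5.5 CPM). Zmat3 (14.4 against 25.2 CPM) and Phlda3 (84.1 against 123.8 CPM) were lower there. In tumour 3 Phlda3 hardly differed (114.1 against 113.8 CPM), and the lower Eda2r and Zmat3 values rest on 1 and 6 UMIs. In Hmga2-gated cells Cdkn1a stood at 37.6, 60.6 and 27.1 CPM in cycling cells, against 83.3, 85.9 and 44.2 CPM in the others. The cycling value of tumour 3 is 3 UMIs in 8 cells (95% Poisson interval 5.58 to 79.1 CPM). Mural cells did not share this in tumour 1, with 111.0, 25.4 and 172.4 CPM in cycling cells, against 72.0, 63.0 and 385.7 CPM in the others; these rest on 25, 3 and 8 UMIs in 33, 14 and 8 cycling cells. Phlda3 did not follow in epithelial cells, at 46.8, 41.6 and 49.6 CPM in cycling cells, against 39.4, 48.4 and 32.7 CPM in the others. The split is a description with no test; cycling epithelial cells were deeper, with medians of 17310, 13720 and 10570 UMIs against 10010, 8656 and 7625 UMIs, and so were cycling fibroblasts, with 11980, 17620 and 7136 UMIs against 6957, 7762 and 4927 UMIs.

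**Figure D5:**
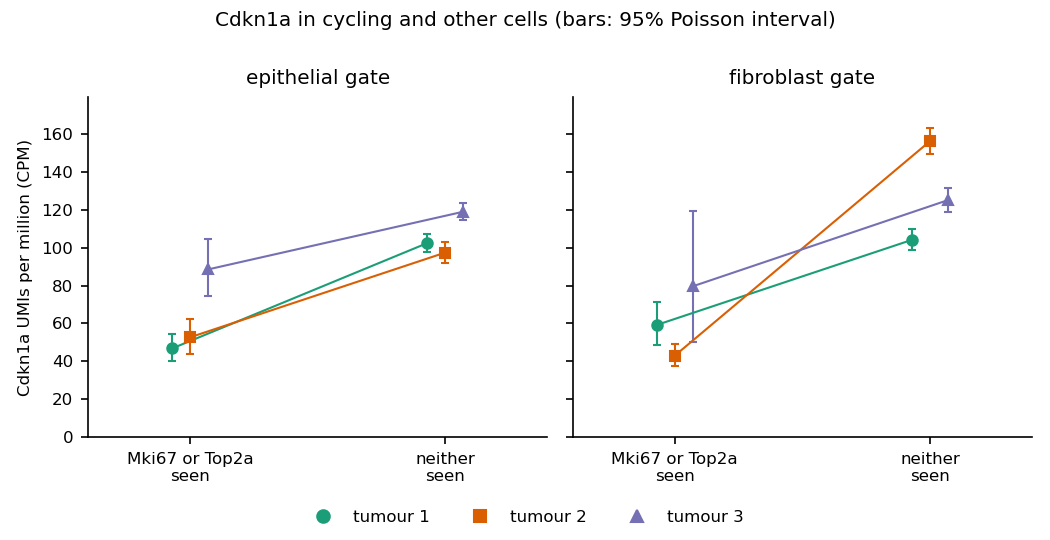
Cdkn1a in CPM in cells with an Mki67 or Top2a UMI and in the other cells of the epithelial and fibroblast gates, 1 line per tumour, with 95% Poisson intervals for counting error. Each line rises to the right, by the least in epithelial cells of tumour 3, with 88.5 against 118.9 CPM.

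A wider list of 30 p53 targets, of which 29 were tested, had members called in both directions. In epithelial cells over fibroblasts 5 were called higher and 8 lower, where 15.8% of all genes were called higher and 21.3% lower, with a median log2 fold change of 0.03 beside -0.04 for all genes. In this and the other comparisons the counts of the list are given for description, and nothing about the list is read from a count near the share of all genes. The lower ones included Ak1, an adenylate kinase (-4.47 ± 0.51, adjusted p = 4.15e-05), Fas, a death receptor (-2.31 ± 0.42, adjusted p = 0.00103), and Tap1, a peptide transporter of antigen presentation (-1.57 ± 0.44, adjusted p = 0.0146). The higher ones included Gls2, a mitochondrial glutaminase (2.23 ± 0.65, adjusted p = 0.0193), Xpc, a DNA damage sensor (1.09 ± 0.21, adjusted p = 0.00139), and the death receptor Tnfrsf10b (1.03 ± 0.29, adjusted p = 0.0164). Fas stood at 4.34, 1.72 and 6.69 CPM in epithelial cells, against 23.0, 11.7 and 22.0 CPM in fibroblasts. Ak1 stood at 5.04, 5.62 and 3.50 CPM, against 109.7, 78.9 and 94.1 CPM.

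Over mural cells 5 of 29 were higher in epithelial cells and 2 lower, where 17% of all genes were higher and 16.4% lower. Gadd45a, a growth arrest gene, was among the higher ones (3.00 ± 0.34, adjusted p = 4.84e-05), with 110.8, 158.8 and 164.0 CPM in epithelial cells, against 15.1, 14.2 and 26.4 CPM in mural cells, and Bax, a pore former of apoptosis, was lower (-0.99 ± 0.17, adjusted p = 0.00102). Over endothelial cells, where 10.8% of all genes were higher and 10.4% lower, 4 of 29 were higher and 4 lower, the lowest of them Plk2 (-3.52 ± 0.28, adjusted p = 6.52e-06), a kinase at 27.02 and 27.4 CPM in epithelial cells of tumours 1 and 3, against 270.7 and 417.2 CPM in endothelial cells. Over mesothelial cells, where 16.7% of all genes were higher and 18.3% lower, 5 of 25 were higher and 6 lower, and Fas (-3.43 ± 0.42, adjusted p = 2.52e-05) and Tap1 (-3.21 ± 0.46, adjusted p = 0.000104) were again lower. In Hmga2-gated cells over fibroblasts 2 of 29 were higher and 6 lower, where 6.77% of all genes were higher and 13.3% lower. The higher ones were Gadd45a (1.21 ± 0.29, adjusted p = 0.0124) and Bbc3, which encodes the pro-apoptotic Puma (1.29 ± 0.31, adjusted p = 0.0124). Between Hmga2-gated and epithelial cells Ak1 was higher and Dcxr and Xpc lower, where 4.81% of all genes were higher and 7.44% lower.

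Among 13 tested regulators and relatives of p53, Hipk2, a kinase that phosphorylates p53, was called higher in epithelial cells than in each of the 4 stromal classes. It held 49.6, 54.6 and 58.3 CPM in epithelial cells of tumours 1, 2 and 3, against 19.8, 16.4 and 23.6 CPM in fibroblasts, a log2 fold change of 1.41 ± 0.22 (adjusted p = 0.000427). Usp7, the deubiquitinase of p53 and Mdm2, was higher over fibroblasts (0.65 ± 0.19, adjusted p = 0.0174), mural and mesothelial cells. Chek2, the checkpoint kinase, was lower in epithelial cells than in endothelial cells (-2.40 ± 0.54, adjusted p = 0.00838) and mesothelial cells (-2.47 ± 0.39, adjusted p = 0.000203). The shares of all genes called higher and lower, against which the counts of the next lists stand, were 15.8% and 21.3% over fibroblasts, 17% and 16.4% over mural cells, 10.8% and 10.4% over endothelial cells and 16.7% and 18.3% over mesothelial cells, and in Hmga2-gated cells 6.77% and 13.3% over fibroblasts and 4.81% and 7.44% over epithelial cells. Of the regulators, 2 of 13 were called higher and 0 lower over fibroblasts, 3 and 0 over mural cells, 1 and 1 over endothelial cells and 3 and 1 over mesothelial cells, and in Hmga2-gated cells 1 and 0 over fibroblasts and 0 and 0 over epithelial cells. Of 9 cell cycle genes, the counts higher and lower were 1 and 0, 0 and 2, 0 and 0 and 1 and 0 in the 4 epithelial comparisons, then 2 and 0 and 0 and 0 in the Hmga2-gated ones. Of 11 early response genes, which can mark dissociation stress, they were 1 and 0, 2 and 3, 0 and 1 and 0 and 7, then 2 and 2 and 0 and 1. Cdkn2a itself served as a gate gene and was not tested; it stood at 441.0, 857.0 and 726.5 CPM in epithelial cells and 150.9, 1671 and 486.2 CPM in fibroblasts.

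The authors' deposited table of 19 clusters gives values pooled over the tumours. In the authors' deposited table Eda2r, Zmat3 and Phlda3 were higher in clusters 2 and 4, with Dcn means of 42.5 and 19.3. The log2 fold changes of these genes were 3.01, 1.72 and 1.08 in cluster 2 and 2.39, 1.80 and 1.74 in cluster 4. Clusters 9 and 11 of the authors' deposited table had higher Dcn means, at 57.3 and 78, and these genes did not pass there. The log2 fold changes were 1.1, 0.0404 and -0.703 in cluster 9 and 1.92, 1.03 and 0.818 in cluster 11. Ccng1 (1.45) and Cdkn1a (1.02) passed an adjusted p of 0.05 upwards in cluster 4 alone of the authors' deposited table. Perp was higher in clusters 1 and 5 of the authors' deposited table, the 2 in which Epcam also passed upwards, and Pmaip1 in clusters 3 and 5. In it Trp53 was higher in cluster 5 (1.1) and lower in cluster 6 (-1.30), and Mdm2 and Mdm4 passed in no cluster of the authors' deposited table. That table rests on the same cells and is no independent evidence.

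The genes most like 4 of the members over the 14 class sums, by Pearson correlation of log CPM among 14169 genes, were named by a fixed rule. Perp was closest to Rap1gap (r = 0.984), Lamb3 (0.969), Slc39a4 (0.969), Crb3 (0.967) and Misp (0.964). Mdm2 was closest to Ssbp2 (r = 0.889), Cdkn1a to Lrrc75aos2 (0.945) and Rasd2 (0.897), and Trp53 to A630001G21Rik (0.775), the weakest likeness of the 4. Sums of a tumour share a library, and these values describe the ranking only.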

How the data were processed

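UMI counts per gene and cell barcode from 3 tumours, 19576 barcodes in all, were deposited by the authors as a single matrix of whole numbers; the submitters' processing notes name Cell Ranger 2.1.1 and Seurat 3.0 with no role, and no label names a genome build. The deposited score columns of the authors' cluster table are mean UMI counts per cluster, and its log2 fold changes and adjusted p-values are as deposited, per the file headers; how they were computed is not stated. Gene positions and promoters came from GRCm38 references.

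Barcodes under 500 genes, over 20% mitochondrial UMIs or marked by Scrublet (74, 94 and 144 doublets in tumours 1, 2 and 3) were left out, keeping 5728, 5978 and 7284. Counts were summed per tumour and gated class of at least 20 cells, and levels are CPM, counts divided by the UMI total of the sum. Intervals cover counting error only. The sums were tested with edgeR 4.0.16 in R 4.3.3 (TMM, low-count filter, quasi-likelihood, tumour as a block, Benjamini-Hochberg at 0.05 over all genes), with the 12 gate genes left out. Same-numbered sums pair because they come from the same tumour's library, per the labels. The planned rule left too few mesothelial cells, so that class was redefined after the data were seen and fitted apart. Alternatives were DESeq2 1.42.0 and other size factors, filters, gates, thinning to 3000 UMIs and each tumour left out. The steps were tested on simulated data. The 10 genes and all lists were chosen with earlier results of these data known. All 10 genes are named; of the wider lists, up to 3 called genes per direction with the largest changes and the same sign in each tumour tested.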

Additional observations from a re-analysis of the deposited data

Results flagged for a closer look

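The difference of Cdkn1a between cells with and without a Cdkn2a UMI ran in opposite directions in the 2 gates. Fibroblast-gated cells with Cdkn2a held more Cdkn1a than those without in 3 of 3 tumours, and epithelial-gated cells with Cdkn2a held less in 3 of 3. The difference between the gates was 1.20 ± 0.39 on the log2 scale and did not pass over all genes (adjusted p = 0.246, edgeR). Hmga2-bearing cells were left out of the fibroblast gate only, and with them left out of both gates the difference was 1.25 ± 0.41 (adjusted p = 0.438, edgeR). The split was chosen after the data were seen, and cells with a Cdkn2a UMI were deeper in both gates.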

How the results depend on the processing

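Over the alternatives of the 6 comparisons between classes, the 21 called values of the 10 genes met 258 re-fits, of which 227 kept their call, 31 lost it with the same sign (21 of these with a tumour left out) and 0 changed sign; of 470 re-fits of uncalled values, 36 changed sign and 15 passed the threshold. Values below are log2 fold changes or counts of called genes, for epithelial cells over fibroblasts, mural, endothelial and mesothelial cells and for Hmga2-gated cells over fibroblasts and epithelial cells; the causes were not tested. Without the tumour as a replicate block, the genes called in these comparisons were 3250, 3141, 1786, 2895, 1485 and 479 (with it 5257, 4731, 3006, 4402, 2837 and 1735), and 0 of the 10 genes between Hmga2-gated and epithelial cells. With only the classes compared in the fit, Hmga2-gated cells gave 700 genes over fibroblasts (1 of the 10) and 506 over epithelial cells (0 of the 10), and the endothelial comparison called 4 of the 10. With cells kept in every gate, 5 of the 10 were called over mural cells and 3 for Hmga2-gated cells over fibroblasts. With gates of at least 2 UMIs the endothelial comparison called 1, thinning gave 2612 genes over mesothelial cells, and fibroblasts without Cdkn2a or Hmga2 gave 4334 genes for Hmga2-gated cells over fibroblasts.

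Leaving out each tumour gave 3209 to 4586 genes over fibroblasts (4 to 6 of the 10), 2604 to 4019 over mural cells (3 each), 438 to 3261 over endothelial cells (0 to 3) and 2000 to 3772 over mesothelial cells (1 to 5). For Hmga2-gated cells it gave 594 to 3952 over fibroblasts (1 to 6) and 571 to 917 over epithelial cells (0 to 1). Of the calls, 33.8% were higher for Hmga2-gated cells over fibroblasts, against 9.71% with only those classes, 6.40% without tumour 1 and 9.30% without tumour 3. Where Hmga2-gated cells were set against epithelial cells, 39.3% were higher, against 19.6% without the block, 20.7% without tumour 1 and 21.7% without tumour 3. An endothelial or mesothelial side left with few sums is assumed to vary like the other classes.

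Uncalled values changed sign as follows, each range being over the tumours left out. Over fibroblasts, with a tumour left out Trp53 ran over -0.63 to 0.64, and Trp53 was -0.046 with gates of 2 UMIs, -0.034 with only those classes, -0.22 without Cdkn2a-bearing or Hmga2-bearing fibroblasts. Over mural cells, with a tumour left out Trp53 ran over -1.11 to 0.48, Mdm4 ran over -0.37 to 0.11, Cdkn1a ran over -0.90 to 0.59. Over endothelial cells, with a tumour left out Trp53 ran over -1.66 to 1.08, Mdm2 ran over -0.14 to 0.13, Mdm4 ran over -0.39 to 0.68, Eda2r ran over -1.54 to 4.14, Cdkn1a ran over -1.49 to 0.067, and Mdm2 was 0.00102 with doublets kept, 0.021 with gates of 2 UMIs, and Eda2r was 3.58 with gates of 2 UMIs, 1.82 thinned, and Ccng1 was 0.032 thinned. Over mesothelial cells, with a tumour left out Trp53 ran over -1.29 to 0.15, Mdm2 ran over -0.35 to 0.15, Mdm4 ran over -0.027 to 0.19, Phlda3 ran over -0.10 to 0.0405, and Phlda3 was 0.094 without the low-count filter, 0.13 with gates of 2 UMIs, 0.0203 with only those classes, 0.042 thinned, and Zmat3 was 0.57 thinned. For Hmga2-gated cells over fibroblasts, with a tumour left out Trp53 ran over -1.15 to 0.21, and Mdm2 was 0.041 in every gate. For Hmga2-gated over epithelial cells, with a tumour left out Zmat3 ran over -0.23 to 0.27, Pmaip1 ran over -1.03 to 0.30, and Zmat3 was -0.052 with doublets kept, -0.0054 in every gate, and Eda2r was 0.22 with gates of 2 UMIs.

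For the Cdkn2a split, added after the data were seen, fibroblasts gave 20 genes, and 69 by DESeq2, 79 without the filter, 0 without the block, 66 thinned and 2 to 12 with a tumour left out; epithelial cells gave 973, and 1496 without the filter, 13 without the block (0 of the 10), 170 thinned (0 of the 10), 150 with Hmga2-bearing cells left out of both gates (0 of the 10) and 184 to 305 with a tumour left out (0 of the 10); the difference gave 31, and 207 by DESeq2, 199 without the filter, 0 without the block, 11 thinned, 0 with Hmga2-bearing cells left out of both gates and 0 to 15 with a tumour left out. Sign changes by gene were these. In fibroblasts, with a tumour left out Perp ran over -0.24 to 0.59, Trp53 ran over -0.38 to 0.038, and Perp was -0.15 thinned. In epithelial cells, with a tumour left out Trp53 ran over -0.33 to 0.078, Mdm2 ran over -0.15 to 0.074, Eda2r ran over -1.69 to 3.69, Pmaip1 ran over -0.21 to 0.48, and Trp53 was 0.055 without the low-count filter, 0.0102 thinned, and Mdm2 was 0.051 without the low-count filter, and Ccng1 was 0.025 without the low-count filter. In the difference between the gates, with a tumour left out Eda2r ran over -2.57 to 2.53, Perp ran over -0.38 to 0.42, and Perp was 0.12 by DESeq2, 0.025 with RLE size factors, 0.014 without the block, 0.0697 with doublets kept, and Phlda3 was 0.18 with Hmga2-bearing cells left out of both gates.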
